A study of Homo sapiens with 6 samples.

Results

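The integrated stress response is the shared reaction of cells to amino acid shortage, misfolded protein in the endoplasmic reticulum, mitochondrial stress and haem shortage. Kinases such as EIF2AK3 and EIF2AK4 phosphorylate the initiation factor eIF2, which slows translation in general while favouring translation of ATF4. ATF4 then binds composite C/EBP-ATF elements with C/EBP partners and switches on amino acid transport, serine, asparagine and proline synthesis, and feedback genes. GDF15, a hormone that signals to the brainstem, is among the secreted products of stressed liver cells and can be induced by ATF4 and DDIT3 as well as by p53. Because ATF4 is controlled largely at translation, its own mRNA level is only a partial readout of the pathway.

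The genes described here are 36 members of this response, chosen by symbol from a list of ATF4, its partners, its kinases and its known targets. All 36 were found once each among the 60623 genes in the tables, and all 36 were among the 15664 genes that were tested, those with at least 1 TPM (a transcript abundance scaled by length and library total) in 3 or more libraries. RNA sequencing covered 6 libraries of hepatocyte-like cells differentiated from the human embryonic stem cell line H9 and labelled hepatoblasts at day 19. In 3 libraries the cells had been given 0.1% DMSO as vehicle, and in 3 HFPO-TA had been added, a perfluorinated ether acid whose full name is hexafluoropropylene oxide trimer acid. The unit of the HFPO-TA dose cannot be read with certainty from the labels, and no duration of exposure is given there. The labels record the DMSO share for the control libraries alone. All cells derive from 1 stem cell line, and the labels are silent on whether the 3 libraries of 1 treatment were grown separately. The p-values therefore describe variation among these libraries, and that variation may be technical.

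Liver markers were abundant, with AFP, the fetal serum protein, at a mean of 76581 TPM with DMSO and 65021 with HFPO-TA, and ALB, albumin, at 113 and 64.7 TPM. Of 7 pluripotency markers, NANOG (0.01 and 0.08 TPM) and SOX2 (0.25 and 0.40) were lowest and POU5F1 stood at 0.57 and 1.11, while LIN28A (7.21 and 5.98), DNMT3B (7.43 and 5.75), DPPA4 (12.4 and 12.8) and TDGF1 (25.1 and 29.98) were detected in both groups. The summed level of 12 hepatocyte and hepatoblast markers ran from 117169 to 130452 TPM with DMSO and from 107045 to 115874 with HFPO-TA, so it was lower with HFPO-TA in every library. AFP makes up most of that sum. Of the 12, 1 was called in limma, the fibrinogen chain FGB (6737 and 3453 TPM), and 3 lay above 0, among them the apolipoprotein APOA2 (5287 and 8253 TPM). The summed level of 5 gut endoderm markers was also lower, at 365 to 391 TPM against 338 to 349. Summed markers of pluripotent, stromal, endothelial, neural, blood and proliferating cells overlapped between the groups. The sum of 8 stromal and stellate markers was sizeable, from 1533 to 2218 TPM with DMSO and from 1303 to 2500 with HFPO-TA. The neural gene ELAVL4 and the blood gene HBG1 were listed at 0 in every library. In all, 4 of 6 neural and 4 of 5 blood markers stayed under 1 TPM in every library. The neural genes STMN2 (29.6 and 24.2 TPM) and TUBB3 (14.6 and 14.1) and the blood gene CD68 (46.2 and 49.6) were detected in both groups. The part of these shifts in marker levels in the results below was not tested. In whole cultures fewer cells of a type and less RNA per cell cannot be told apart.

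GDF15 was the only member that passed the test. It stood at 129.6, 133 and 112 TPM in the 3 DMSO libraries and at 208, 289.6 and 314 TPM in the 3 HFPO-TA libraries. The groups did not overlap, and replicate 1 was the lowest of the HFPO-TA libraries. The means were 125 ± 11.4 and 270.4 ± 55.4 TPM (SD, n = 3 each), a log2 fold change of 1.09 on the log2(TPM + 1) scale (SE 0.15, 95% interval 0.73 to 1.45, adjusted p = 0.0418 in limma). Among the 36 members, ordered by mean TPM, which is scaled by length, GDF15 moved from the seventh position with DMSO to the second with HFPO-TA, behind SLC3A2.

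The call on GDF15 was close to the threshold while its size was not. Over 15 other ways of fitting, the log2 fold change lay between 0.98 and 1.30, and 5 of the 15 called it. Of the 6 fits with 1 library left out, the fit without HFPO-TA replicate 1 called it (1.27, adjusted p = 0.0026). Without DMSO replicate 1, 2 or 3 or HFPO-TA replicate 2 or 3 the adjusted p was 0.105, 0.152, 0.227, 0.174 and 0.142. A letter in the column headers of the data, which the labels do not explain, parts replicate 1 from replicates 2 and 3 in both groups. Within replicates 2 and 3 the log2 fold change was 1.30 (SE 0.09, adjusted p = 0.0113), and within replicate 1, with 1 library a group and no test, GDF15 stood at 129.6 and 208 TPM.

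**Figure D1:**
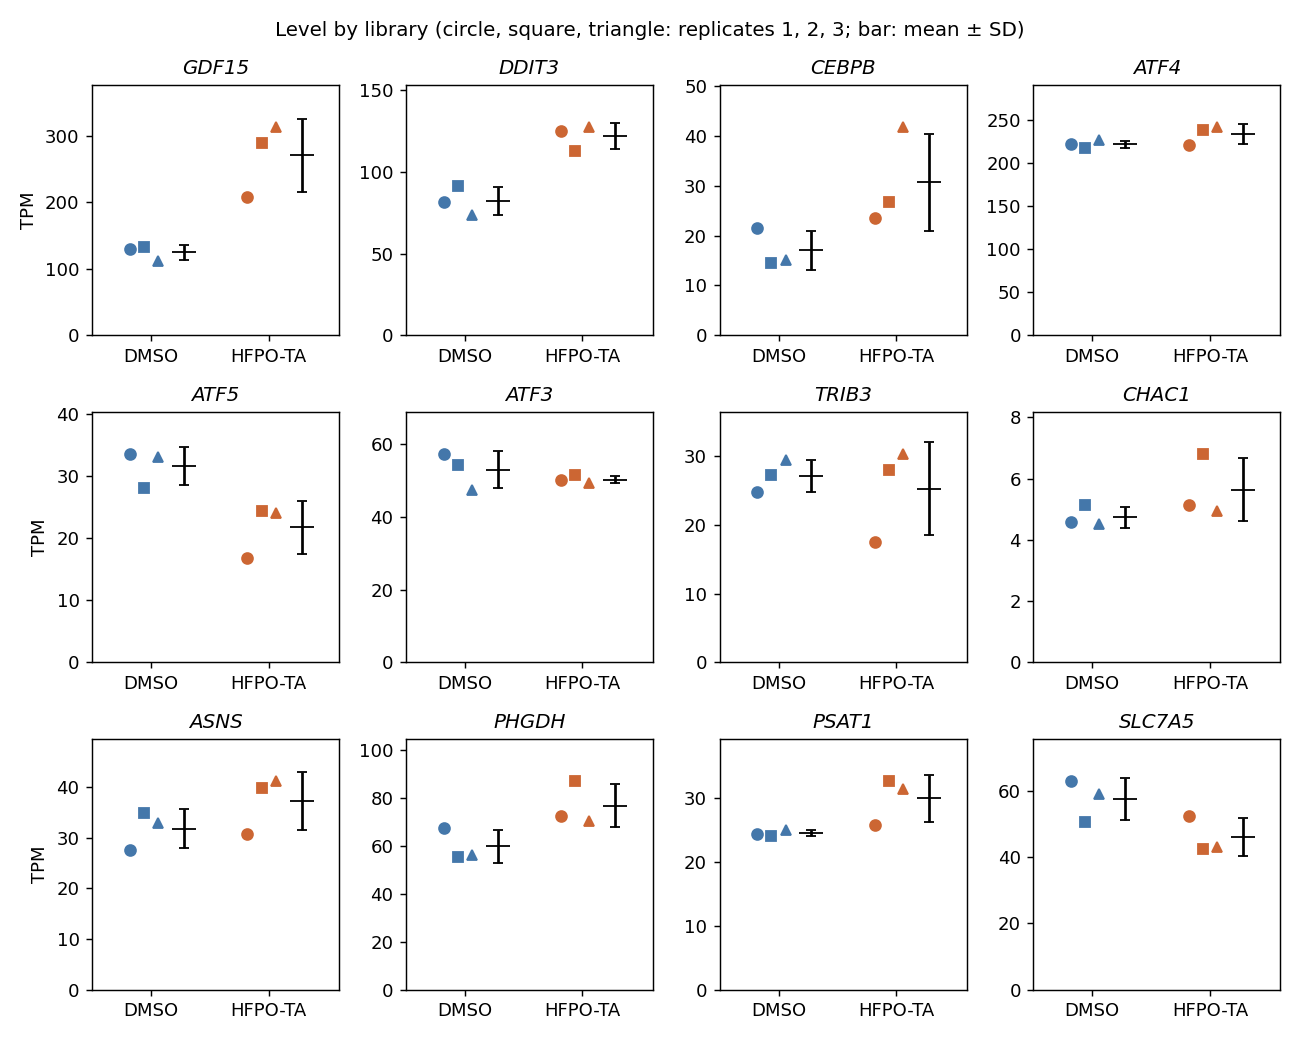
TPM (vertical axes, linear and starting at 0) of 12 members in each of the 3 DMSO libraries (blue) and 3 HFPO-TA libraries (orange), with circles, squares and triangles for replicates 1, 2 and 3 and black bars for the mean ± SD. GDF15, DDIT3, CEBPB, PHGDH and PSAT1 lie higher in every HFPO-TA library than in any DMSO library, ATF5 lies lower, and ATF4, ATF3, TRIB3, CHAC1, ASNS and SLC7A5 overlap.

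In all, 1 of the 36 members was called higher and 0 lower in limma at an adjusted p under 0.05, where 0.492% of all tested genes were called (0.185% higher and 0.306% lower). Of the 36 members, 9 had an unadjusted p under 0.05 (6 higher, 3 lower), against 12.0% of all tested genes (5.45% higher, 6.56% lower). The 6 libraries did not overlap between groups for 8 members, 7 higher and 1 lower, against 17.9% of all tested genes (8.55% higher, 9.40% lower). The median log2 fold change was 0.03 over the members and -0.01 over all tested genes. Of the 36 members 22 lay above 0 and 14 below, against 7561 above and 8103 below of all 15664 tested genes. These shares are a description: the members were chosen by pathway, and several are regulated together.

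ATF4, the transcription factor at the centre of the response, differed little in mRNA level. It stood at 221, 217 and 226 TPM with DMSO and at 220.1, 238 and 242 TPM with HFPO-TA. The groups overlapped, with replicate 1 of HFPO-TA inside the DMSO range. The log2 fold change was 0.07 (SE 0.06, adjusted p = 0.69), and its 95% interval ran from -0.06 to 0.21, so that a change of more than 1.16-fold upward lay outside it. Over the other 15 ways of fitting the value for ATF4 ran from 0.05 to 0.12.

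DDIT3, known as CHOP, a C/EBP-family factor made when stress persists, came closest to the threshold after GDF15. It stood at 81.6, 91.3 and 73.8 TPM with DMSO and at 125, 113 and 128 TPM with HFPO-TA, with no overlap. The log2 fold change was 0.57 (SE 0.09, 95% interval 0.36 to 0.78) and the adjusted p was 0.0506. With a minimum of 5 TPM the adjusted p was 0.0283, and with a term parting replicate 1 from the others it was 0.045; the other 13 ways of fitting did not call it. DDIT3 shares exon sequence with MARS1 (MARS in the files), the methionyl-tRNA synthetase gene, on the opposite strand. MARS1 stood at 109, 103 and 94.0 TPM with DMSO and at 157, 121 and 95.8 TPM with HFPO-TA. Its means were 102 ± 7.65 and 124 ± 30.5 TPM (SD, n = 3 each, adjusted p = 0.611 in limma). MBD6, also on the opposite strand and sharing exon sequence with DDIT3, had means of 11.3 and 10.2 TPM. Whether the counting used strand is not given in the sources used here, so the value of DDIT3 is uncertain.

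CEBPB, a C/EBP partner of ATF4 that also responds to inflammation, had the second largest fold change of the members. It stood at 21.5, 14.4 and 15.2 TPM with DMSO and at 23.6, 26.7 and 41.9 TPM with HFPO-TA. The groups did not overlap, but replicate 3 of HFPO-TA stood far above the other libraries. The log2 fold change was 0.79 with a wide error (SE 0.23, 95% interval 0.25 to 1.34, adjusted p = 0.24). Without HFPO-TA replicate 3 it was 0.55.

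ATF5, a relative of ATF4 tied to mitochondrial stress, lay in the opposite direction. It stood at 33.6, 28.03 and 33.1 TPM with DMSO and at 16.9, 24.4 and 24.1 TPM with HFPO-TA. Every HFPO-TA library lay below every DMSO library, and replicate 1 of HFPO-TA was the lowest. The log2 fold change was -0.53 (SE 0.15, 95% interval -0.87 to -0.18, adjusted p = 0.209). ATF5 shares exon sequence with NUP62, a nuclear pore gene on the opposite strand, at 18.3 and 17.2 TPM. NUPR1, a small stress-induced chromatin protein, stood at 11.5, 16.2 and 12.7 TPM with DMSO and at 7.20, 11.5 and 9.33 TPM with HFPO-TA, overlapping by 1 library (-0.49, SE 0.18, adjusted p = 0.337).

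The other transcription factors had log2 fold changes between -0.07 and 0.10. ATF3, an early stress factor, stood at 57.4, 54.3 and 47.6 TPM with DMSO and at 50.1, 51.5 and 49.4 TPM with HFPO-TA (log2 fold change -0.07, 95% interval -0.26 to 0.12). CEBPG, a partner of ATF4 in amino acid stress, had means of 39.5 ± 3.07 and 42.3 ± 4.02 TPM and a log2 fold change of 0.10. JDP2, a repressor of the AP-1 family, had means of 27.7 ± 0.67 and 28.1 ± 1.96 TPM and a log2 fold change of 0.02. Of the 8 transcription factors, 5 lay above 0 and 3 below, and none was called in limma. An unadjusted p under 0.05 was found for 4, namely CEBPB, DDIT3, NUPR1 and ATF5, against 12.0% of all tested genes.

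Neither the eIF2 kinases nor the phosphatase subunit that ends the response passed the test. EIF2AK3, the kinase called PERK that senses misfolded protein in the endoplasmic reticulum, had means of 19.4 ± 1.43 and 20.8 ± 0.24 TPM (log2 fold change 0.09, 95% interval -0.11 to 0.30). EIF2AK4, the kinase called GCN2 that senses uncharged tRNA, had means of 29.9 ± 3.87 and 30.3 ± 6.77 TPM, and its log2 fold change of 0.00 had an interval of -0.37 to 0.37 and turned below 0 with upper-quartile scaling. PPP1R15A, called GADD34, which brings a phosphatase to eIF2, had means of 29.3 ± 2.003 and 31.6 ± 1.33 TPM (0.11, interval -0.08 to 0.30).

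Feedback and growth-control targets of ATF4 and CHOP were not called either. TRIB3, a pseudokinase that restrains ATF4, stood at 24.8, 27.2 and 29.4 TPM with DMSO and at 17.6, 27.9 and 30.3 TPM with HFPO-TA. Replicate 1 of HFPO-TA was the lowest library, and the other pair lay within or just above the DMSO range (log2 fold change -0.13, interval -0.57 to 0.31; 0.10 without HFPO-TA replicate 1). CHAC1, which breaks down glutathione, stood at 4.58, 5.14 and 4.51 TPM with DMSO and at 5.15, 6.81 and 4.95 TPM with HFPO-TA (0.20, interval -0.14 to 0.54). SESN2, an amino acid sensor that inhibits mTORC1, had means of 19.4 ± 1.61 and 16.8 ± 0.95 TPM (-0.20, interval -0.42 to 0.03). DDIT4, another mTORC1 inhibitor, had means of 174 ± 4.55 and 180.2 ± 1.97 TPM, and EIF4EBP1, a repressor of cap-dependent translation, 182 ± 15.7 and 196 ± 13.5 TPM (0.05 and 0.10).

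Of the first steps of serine synthesis from glycolysis, PHGDH and PSAT1 lay higher with HFPO-TA without passing the test. PHGDH, the first enzyme, stood at 67.7, 55.6 and 56.3 TPM with DMSO and at 72.6, 87.1 and 70.5 TPM with HFPO-TA, with no overlap (log2 fold change 0.35, SE 0.11, interval 0.10 to 0.61, adjusted p = 0.247). PSAT1, the aminotransferase that follows, stood at 24.4, 24.1 and 25.0 TPM with DMSO and at 25.7, 32.7 and 31.5 TPM with HFPO-TA, again with no overlap (0.27, SE 0.10, interval 0.03 to 0.51, adjusted p = 0.345). Replicate 1 of HFPO-TA lay only just above the DMSO libraries for PSAT1. PSPH, the phosphatase of the last step, stood at 48.7, 43.4 and 48.1 TPM with DMSO and at 52.0, 56.7 and 44.6 TPM with HFPO-TA, and overlapped (0.12, interval -0.11 to 0.35).

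The mitochondrial one-carbon enzymes had log2 fold changes between -0.06 and 0.08. SHMT2, which splits serine to glycine, had means of 61.9 ± 2.12 and 65.6 ± 2.35 TPM (log2 fold change 0.08, interval -0.07 to 0.23). MTHFD2, a folate dehydrogenase that is a sensitive ATF4 target, had means of 53.4 ± 2.22 and 51.2 ± 1.93 TPM (-0.06, interval -0.22 to 0.10). ALDH1L2, a mitochondrial folate enzyme, was the least abundant member, at 2.81 ± 0.61 and 2.72 ± 0.07 TPM. None of the 6 genes of serine synthesis and mitochondrial one-carbon metabolism was called in limma. An unadjusted p under 0.05 was found for 2, 2 higher and 0 lower, against 5.45% and 6.56% of all tested genes.

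ASNS, asparagine synthetase, a classical ATF4 target, stood at 27.6, 34.9 and 32.9 TPM with DMSO and at 30.8, 39.7 and 41.2 TPM with HFPO-TA. The groups overlapped, and replicate 1 was the lowest library of each group (log2 fold change 0.22, SE 0.13, interval -0.09 to 0.52, adjusted p = 0.589). ASNS shares exon sequence with AC079781.5 on the same strand, at 12.02 and 12.8 TPM. The proline enzymes PYCR1 (219 ± 19.7 and 231 ± 10.03 TPM) and ALDH18A1 (159.7 ± 18.5 and 157 ± 3.82 TPM) had log2 fold changes of 0.08 and -0.02. XPOT, which exports tRNA from the nucleus, stood at 43.3, 45.8 and 40.8 TPM with DMSO and at 45.4, 54.8 and 58.8 TPM with HFPO-TA, overlapping by 1 library (0.28, SE 0.10, adjusted p = 0.337).

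Amino acid transporters showed no shared direction. Of 7, 3 lay above 0 and 4 below, with a median log2 fold change of -0.01, and none was called in limma. The sign of SLC1A5 turned below 0 with upper-quartile scaling and that of SLC3A2 above 0 with median-of-ratios scaling. SLC7A5, the large neutral amino acid carrier, stood at 62.9, 50.7 and 58.9 TPM with DMSO and at 52.5, 42.5 and 43.0 TPM with HFPO-TA, and lay lower without passing the test (-0.32, SE 0.11, interval -0.58 to -0.06, adjusted p = 0.306). SLC3A2, the heavy chain that SLC7A5 needs, was the most abundant member, at 316, 299 and 322 TPM with DMSO and at 319, 305 and 306 TPM with HFPO-TA (-0.01, interval -0.13 to 0.12). SLC7A1, a carrier of arginine and lysine, stood at 10.8, 7.17 and 8.93 TPM with DMSO and at 10.3, 6.80 and 8.14 TPM with HFPO-TA (-0.09, interval -0.51 to 0.34).

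The remaining carriers had log2 fold changes between -0.06 and 0.11. They were SLC6A9, a glycine carrier (0.11), SLC38A2, a glutamine and alanine carrier (0.02), SLC1A5, a glutamine carrier (0.01), and SLC1A4, a carrier of alanine and serine (-0.06). The other secreted or surface products were not called. STC2, a secreted glycoprotein, had means of 54.5 ± 8.28 and 50.6 ± 7.43 TPM (-0.11, interval -0.43 to 0.22). VLDLR, a lipoprotein receptor induced by ATF4, had means of 13.9 ± 1.23 and 13.6 ± 1.66 TPM (-0.03, interval -0.31 to 0.25).

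**Figure D2:**
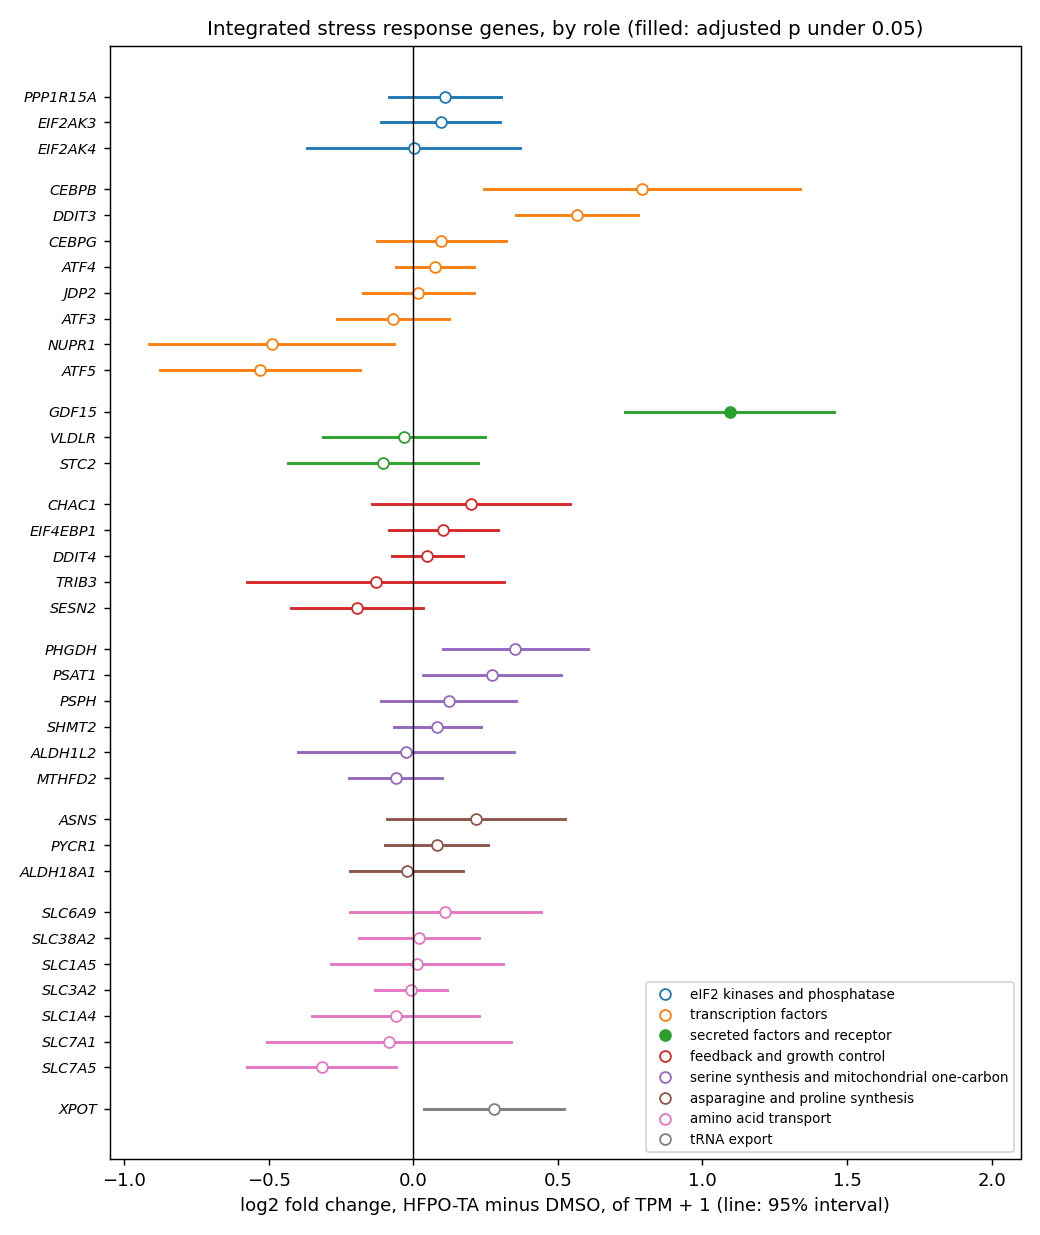
Log2 fold change of TPM + 1, HFPO-TA minus DMSO (horizontal axis), of all 36 members grouped by role (vertical axis, colours), with the 95% interval from limma as a line and a filled point where the adjusted p was under 0.05. GDF15 (1.09) is the only filled point, DDIT3 (0.57) and CEBPB (0.79) follow, and the 7 amino acid transporters lie between -0.32 and 0.11.

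The size of the GDF15 change was then set against single members within each library, as the log2 ratio of TPM + 1. The ratio of GDF15 to ATF4 was -0.77, -0.71 and -1.01 in the DMSO libraries and -0.08, 0.28 and 0.37 in the HFPO-TA libraries. The groups did not overlap and differed by 1.02. A 2-sided exact permutation test over the 6 libraries gave p = 0.1, the smallest that 3 against 3 allows, so the design cannot reach 0.05. For the 7 ratios computed, to ATF4, ASNS, PSAT1, PHGDH, SLC7A5, SLC7A1 and DDIT3, the exact permutation p was 0.1 each (0.1 after adjustment), with the ratio higher in all 3 HFPO-TA libraries. The differences were 0.88 to ASNS, 0.82 to PSAT1, 0.74 to PHGDH, 1.41 to SLC7A5 and 1.18 to SLC7A1. The smallest was that to DDIT3, at 0.53, where replicate 1 of HFPO-TA (0.73) lay close to the DMSO libraries (0.53 to 0.66). All 7 ratios share the GDF15 values and are not independent of each other. The members were chosen with earlier results of these data known, and GDF15 has the largest log2 fold change among them. Its ratio to any member with a smaller change must therefore be higher in the mean. The ratios describe size and lend no separate support.

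Promoter sequence is shown to set the members beside the element that ATF4 binds with C/EBP proteins. RefSeq windows (GRCh38.p14) of 300 bases, 250 before to 50 after a transcript start, were matched by symbol for 30 of the 36 members. They were searched on both strands for TGATGNAA, the core of that element, where N is any base; its reverse complement reads TTNCATCA. The letters occurred in the windows of 9 of the 30 members, and in those of 4.46% of all genes in the table (3.62% of windows) and 2.7% of the 10915 tested genes with a window. Since the members were listed as ATF4 targets, partly through such elements, this is a description and no result of the experiment. The 9 matches are given 5′ to 3′ on the strand of the gene, with the matched letters in capitals, at chr1:212565205-212565234 (+, ATF3), chr7:97872458-97872487 (-, ASNS), chr15:40953251-40953280 (+, CHAC1), chr19:33374060-33374089 (+, CEBPG), chr14:75427995-75428024 (+, JDP2), chr2:64989381-64989410 (+, SLC1A4), chr19:46784893-46784922 (-, SLC1A5), chr11:62881725-62881748 (+, SLC3A2) and chr13:29595663-29595692 (-, SLC7A1).
ATF3: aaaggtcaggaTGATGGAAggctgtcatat
ASNS: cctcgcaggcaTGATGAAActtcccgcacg
CHAC1: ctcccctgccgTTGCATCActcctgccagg
CEBPG: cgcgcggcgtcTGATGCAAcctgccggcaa
JDP2: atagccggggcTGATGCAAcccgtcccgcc
SLC1A4: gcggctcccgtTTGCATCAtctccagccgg
SLC1A5: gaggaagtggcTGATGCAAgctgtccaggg
SLC3A2: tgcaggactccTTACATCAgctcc
SLC7A1: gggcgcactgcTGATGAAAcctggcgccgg

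The 9 members with these letters had log2 fold changes from -0.09 (SLC7A1) to 0.22 (ASNS), with a median of 0.01. None was called in limma and 0 had an unadjusted p under 0.05. The 21 members whose windows lacked the letters ran from -0.53 to 1.09, with a median of 0.05. Of these 1 was called and 8 had an unadjusted p under 0.05 in limma, against 12.0% of all tested genes. GDF15 and DDIT3 were among the 21. Elements farther away than these windows were not searched. The cAMP response element TGACGTCA was present in the window of 1 member, PPP1R15A, and of 2.25% of all genes (3.6% of tested genes). The endoplasmic reticulum stress element was searched on both strands as an exact match only. In that form it was present in 0 of the 30 and in 0.0916% of all genes (0.147% of tested genes). Copies that differ from that form by a letter were not searched. The count therefore does not show that any member, DDIT3 included, lacks such an element.

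The 250 bases before the start of GDF15, the member that rose, and of DDIT3, the member nearest to it in adjusted p, are shown because neither holds the composite letters. They lie at chr19:18385908-18386157 on the plus strand and chr12:57520515-57520764 on the minus strand (the first of its 2 windows), and are given 5′ to 3′ in lower case with no part in capitals.
GDF15: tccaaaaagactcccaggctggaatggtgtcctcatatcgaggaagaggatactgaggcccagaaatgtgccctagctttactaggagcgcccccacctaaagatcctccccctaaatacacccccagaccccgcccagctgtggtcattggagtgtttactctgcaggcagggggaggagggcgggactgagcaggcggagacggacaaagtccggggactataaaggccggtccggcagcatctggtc
DDIT3: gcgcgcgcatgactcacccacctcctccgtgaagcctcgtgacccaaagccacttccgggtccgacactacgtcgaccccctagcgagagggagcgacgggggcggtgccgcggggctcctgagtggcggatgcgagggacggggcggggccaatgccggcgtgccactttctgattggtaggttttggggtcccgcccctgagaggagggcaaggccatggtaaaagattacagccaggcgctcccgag

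Other genes of the pathway were described from 8 further lists. Among other published ATF4 or CHOP targets, 34 of 36 were tested, 28 lay above 0, as did 7561 of all 15664 tested genes, and the median log2 fold change was 0.16. Of these 1 was called higher, 0 lower and 33 did not pass. In limma 9 had an unadjusted p under 0.05, 9 higher and 0 lower, against 5.45% and 6.56% of all tested genes. Of the 34, 14 lay higher in every HFPO-TA library than in any DMSO library, where 8.55% of all tested genes did. Another 2 lay lower in every HFPO-TA library, where 9.40% did: LAMP3, a lysosomal membrane protein, at 5.33 ± 0.14 and 3.57 ± 1.48 TPM (adjusted p = 0.449) and TNFRSF10B, a death receptor, at 103.5 ± 9.01 and 92.5 ± 2.41 TPM (adjusted p = 0.461), both named after their values were seen. The called gene was CTH, which makes cysteine from cystathionine, at 10.3, 9.39 and 8.27 TPM with DMSO and at 16.7, 16.6 and 17.5 TPM with HFPO-TA. Its groups stood well apart (log2 fold change 0.80, SE 0.11, adjusted p = 0.0324), and it was called in 8 of 15 other ways of fitting. It lost the call without DMSO replicate 2 or 3 or HFPO-TA replicate 2 or 3 (adjusted p up to 0.189).

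Several further targets, chosen after their values were seen, lay higher without passing the test. GADD45A, a growth arrest gene, stood at 75.5 ± 5.42 and 101 ± 2.18 TPM (adjusted p = 0.0563). SQSTM1, the autophagy receptor p62, stood at 149 ± 14.8 and 202 ± 11.97 TPM (adjusted p = 0.0742). NDRG1 stood at 204 ± 22.4 and 293 ± 44.3 TPM (adjusted p = 0.133), and KLHL24 at 20.2 ± 1.90 and 27.8 ± 3.00 TPM (adjusted p = 0.159). INHBE, a secreted activin subunit made in liver, stood at 1.06 ± 0.29 and 2.503 ± 0.44 TPM (adjusted p = 0.139). FGF21, another stress hormone of the liver, was below the filter and read 0, 0 and 0.24 TPM with DMSO and 0.25, 0 and 0 with HFPO-TA.

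The cytosolic aminoacyl-tRNA synthetases, which load tRNAs and many of which are ATF4 targets, lay mostly above 0. Of 20 tested, 18 lay above 0, against 7561 of all 15664 tested genes, with a median log2 fold change of 0.13. Of the 20, 8 lay higher in every HFPO-TA library and 0 lower, against 8.55% and 9.40% of all tested genes. None was called in limma, and 5 had an unadjusted p under 0.05, 5 higher and 0 lower, against 5.45% and 6.56% of all tested genes. TARS1, for threonine, stood at 49.6, 51.0 and 50.5 TPM with DMSO and at 57.3, 62.3 and 60.4 TPM with HFPO-TA (0.25, SE 0.07, adjusted p = 0.182). YARS1, for tyrosine, stood at 51.6 ± 5.90 and 62.5 ± 3.44 TPM (0.28, SE 0.10, adjusted p = 0.298).

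The eIF2 subunits, their exchange factor and regulators, listed together with EIF2A, had 17 of 21 genes above 0, as did 7561 of all 15664 tested genes. Their median was 0.08 and 0 were called. In limma 2 had an unadjusted p under 0.05, 2 higher and 0 lower, against 5.45% and 6.56% of all tested genes. These were EIF2A, an alternative initiation factor (63.1 ± 4.43 and 76.0 ± 3.67 TPM, adjusted p = 0.219), and EIF2B2, a subunit of the exchange factor (66.0 ± 0.19 and 75.3 ± 6.49 TPM, adjusted p = 0.383). Other serine, glycine and folate enzymes had 14 of 21 tested genes above 0, a median of 0.05 and 0 called. Of these 4 had an unadjusted p under 0.05 in limma, 3 higher and 1 lower, against 12.0% of all tested genes. For SARDH, which oxidises sarcosine, levels were 12.9 ± 0.09 and 9.92 ± 0.77 TPM (adjusted p = 0.213), and GCSH, of the glycine cleavage system, at 20.4 ± 0.45 and 27.8 ± 4.92 TPM (adjusted p = 0.254).

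Among other amino acid transporters, 23 of 27 were tested, 11 lay above 0 and 12 below, and the median was -0.01. In limma 7 had an unadjusted p under 0.05, 2 higher and 5 lower, against 12.0% of all tested genes (5.45% higher, 6.56% lower). The groups did not overlap for 3 higher and 5 lower, against 8.55% and 9.40% of all tested genes. The 1 called gene was SLC36A1, a lysosomal and surface carrier of small amino acids, which fell. It stood at 27.7, 28.1 and 29.9 TPM with DMSO and at 20.5, 19.1 and 18 TPM with HFPO-TA (log2 fold change -0.55, SE 0.09, adjusted p = 0.0465). Its groups did not overlap, and it was called in 5 of 15 other ways of fitting. It lost the call without any 1 of the libraries other than HFPO-TA replicate 1 (adjusted p up to 0.247).

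The unfolded protein response also has arms that do not use ATF4. Whether ATF4 also acts on the genes listed here for those arms was not tested. Of 21 genes for the ATF6 and IRE1 arms, 14 lay above 0, with a median of 0.05 and 0 called. In limma 2 had an unadjusted p under 0.05, 2 higher and 0 lower, against 5.45% and 6.56% of all tested genes. HERPUD1, which helps clear misfolded protein, stood at 92.0, 94.2 and 79.8 TPM with DMSO and at 122, 118 and 124 TPM with HFPO-TA (0.45, SE 0.08, adjusted p = 0.0595). For XBP1, the factor activated by IRE1, levels were 137 ± 1.82 and 164 ± 19.4 TPM (0.25, SE 0.09, adjusted p = 0.308).

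Mitochondrial proteases and chaperones, often induced with ATF5, had all 12 tested genes above 0, against 7561 of all 15664 tested genes. Their median log2 fold change was 0.19 and 0 were called. In limma 5 had an unadjusted p under 0.05, 5 higher and 0 lower, against 5.45% and 6.56% of all tested genes. The groups did not overlap for 5 higher and 0 lower, against 8.55% and 9.40% of all tested genes. Levels of LONP1, a matrix protease, were 57.0 ± 4.06 and 69.7 ± 4.23 TPM (0.29, SE 0.08, adjusted p = 0.202), and those of TRAP1, a matrix chaperone, were 93.1 ± 10.1 and 114 ± 5.28 TPM (0.29, SE 0.09, adjusted p = 0.231).

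Targets of p53, the other main route to GDF15 named above, had 12 of 20 genes above 0, a median of 0.04 and 0 called. In limma 3 had an unadjusted p under 0.05, 2 higher and 1 lower, against 12.0% of all tested genes. Some genes, TNFRSF10B among them, were on this list and on that of ATF4 or CHOP targets. GADD45A was placed on the latter alone, so the counts depend on how genes were allotted. Levels of TP53I3, an oxidoreductase, were 8.09 ± 0.75 and 5.45 ± 1.08 TPM (-0.51, SE 0.15, adjusted p = 0.233), and those of FDXR, ferredoxin reductase, were 17.96 ± 0.66 and 21.9 ± 2.84 TPM (0.26, SE 0.11, adjusted p = 0.382). Values of the best known p53 targets, chosen after they were seen, were 283 ± 4.93 and 269 ± 17.1 TPM for CDKN1A (-0.08, adjusted p = 0.694) and 24.6 ± 6.64 and 27.1 ± 3.80 TPM for MDM2 (0.16, adjusted p = 0.807).

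**Figure D3:**
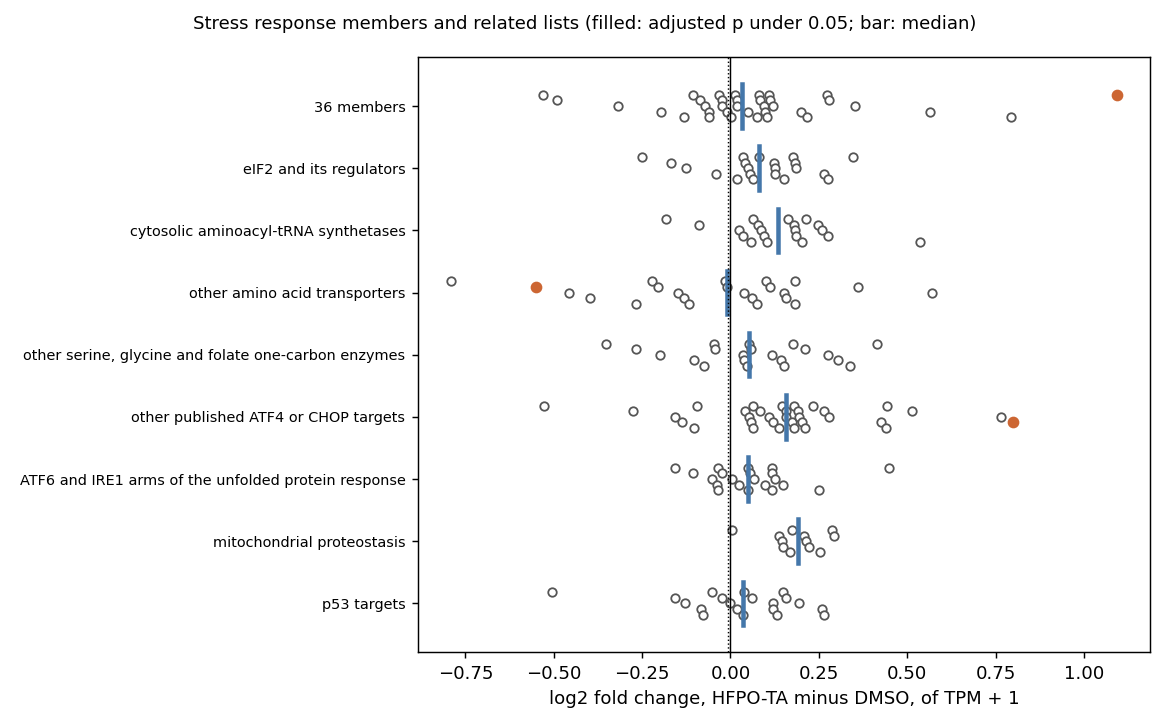
Log2 fold change of TPM + 1, HFPO-TA minus DMSO (horizontal axis), of the 36 members and of each tested gene in 8 related lists (rows), with blue bars for the list medians, a dotted line for the median of all tested genes (-0.01) and filled points where the adjusted p was under 0.05. The filled points are GDF15, CTH (0.80) and SLC36A1 (-0.55), and the 12 genes of mitochondrial proteostasis all lie above 0.

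**Figure D4:**
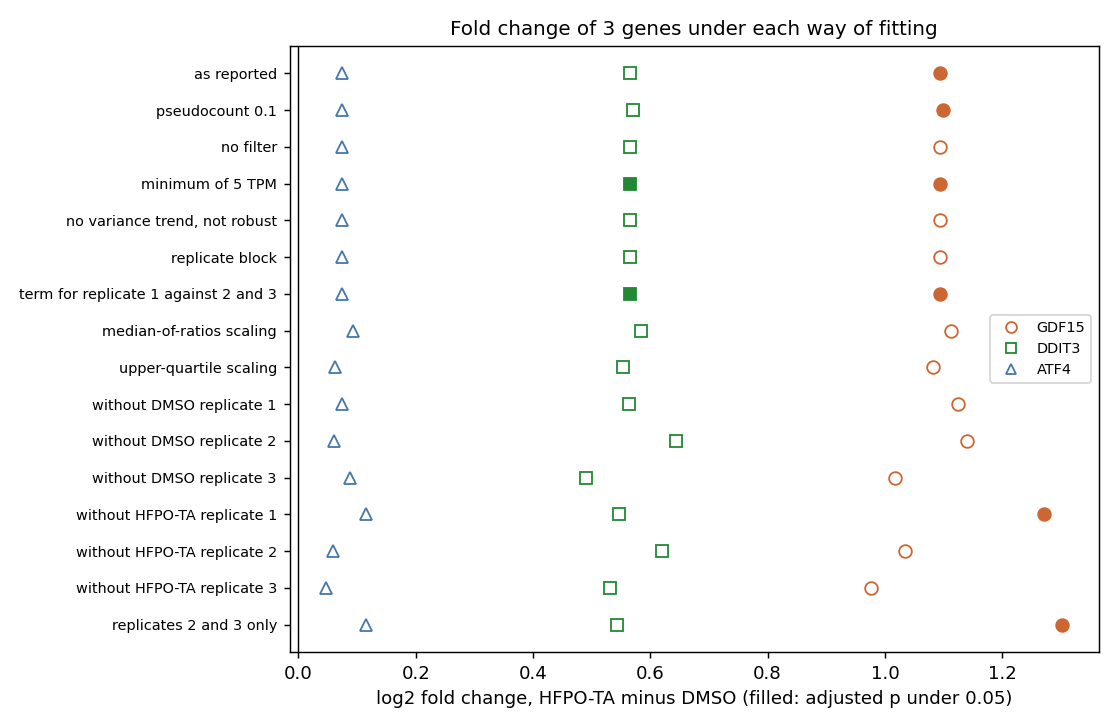
Log2 fold change (horizontal axis) of GDF15, DDIT3 and ATF4 under the fit reported here and 15 other ways of fitting (rows), filled where the adjusted p was under 0.05. GDF15 stays between 0.98 and 1.30, DDIT3 between 0.49 and 0.64 and ATF4 between 0.05 and 0.12, while the calls on GDF15 and DDIT3 come and go.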

How the data were processed

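RNA sequencing of 6 libraries was analysed, 3 with DMSO and 3 with HFPO-TA. Each deposited file holds 1 value per gene under a header that says FPKM, but column totals lie between 995690 and 996186, which is why they were treated as TPM computed by the authors. Per the submitters' processing notes, the tools include HISAT, Bowtie2 and RSEM and the build is GRCh38.p13. Not given in the sources used here were the tools' roles and versions, the annotation and strand handling. Since TPM holds no read totals, depth is unknown and counting intervals are left out; 15383 to 15905 genes reached 1 TPM per library.

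On the log2(TPM + 1) scale, the genes reaching 1 TPM in 3 or more of the libraries were fitted in limma 3.58.1 (R 4.3.3) with treatment as the only term and a trended, robust variance estimate. Adjusted p-values are Benjamini-Hochberg over all 15664 genes, 2-sided. The log2(TPM + 1) scale understates the change of low genes. Members, lists and naming rules were chosen with earlier results of these data known: all 36 members are named, and of each further list the called genes or else the 2 with the smallest p. A further 10 listed genes were named after their values were seen: GADD45A, SQSTM1, NDRG1, KLHL24, INHBE, FGF21, LAMP3, TNFRSF10B, CDKN1A and MDM2. Overlapping genes came from GENCODE 29. The fit was tested on simulated data. Alternatives covered the pseudocount, the filter, variance, replicate number, a possible batch, scaling and each library left out; replicates 2 and 3 alone were added after the data were seen.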

Additional observations from a re-analysis of the deposited data

How the results depend on the processing

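Over the 15 alternatives 23 of the 36 members kept their direction in each, and GDF15, DDIT3, CEBPB, PHGDH, PSAT1 and ATF4 were among them. Called genes, 77 as reported, numbered 10 without a filter, 130 with a minimum of 5 TPM, 11 without a variance trend, 207 with a term parting replicate 1, 30 with median-of-ratios and 40 with upper-quartile scaling, 222 in replicates 2 and 3 alone, 291 without HFPO-TA replicate 1 and 6 to 47 without any other 1 library. Called members, 1 as reported, numbered 2 with the minimum of 5 TPM and with the term for replicate 1. They numbered 0 without a filter, without a variance trend and with either scaling, and 0 to 1 with 1 library left out. Without a filter 9 members had an unadjusted p under 0.05 in limma, as did 2265 of all 31843 tested genes. Without a variance trend it was 8 members against 1766 of 15664 genes. With median-of-ratios scaling it was 8 against 1996, and with upper-quartile scaling 7 against 1963. The number of genes tested changed with the filter; beyond that the cause was not tested. Listed genes called with 1 library left out numbered 0 to 1 for other ATF4 or CHOP targets, other amino acid transporters, other serine and folate enzymes, and the ATF6 and IRE1 arms.

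Same-numbered libraries deviated together at correlations of 0.184, 0.123 and 0.028, against -0.158 to 0.068 for libraries with different numbers. The numbers were not taken as pairs in the fit as reported, though 0.184 and 0.123 exceed every value for different numbers. With the replicate as a block 30 genes and 0 members were called in limma. In that fit 10 members had an unadjusted p under 0.05, as did 2361 of all 15664 tested genes. GDF15 had an adjusted p of 0.108 there, and the lists of other transporters and other ATF4 or CHOP targets had 0 called.

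Signs turned only for members that were not called. With upper-quartile scaling SLC1A5 was at -0.0001 and EIF2AK4 at -0.0115, and with median-of-ratios scaling SLC3A2 was at 0.0104. In replicates 2 and 3 alone the values were -0.0332 for SLC38A2, -0.0551 for JDP2, -0.0741 for EIF2AK4, 0.0662 for ALDH18A1, 0.0887 for ALDH1L2, 0.097 for STC2 and 0.0397 for TRIB3. With 1 library left out the ranges were -0.0174 to 0.1898 for SLC6A9, -0.0616 to 0.0829 for SLC38A2, -0.0373 to 0.0504 for JDP2, -0.12 to 0.1455 for SLC1A5, -0.1707 to 0.1 for EIF2AK4, -0.0397 to 0.0149 for SLC3A2, -0.078 to 0.0701 for ALDH18A1, -0.1277 to 0.0972 for ALDH1L2, -0.0991 to 0.0634 for VLDLR, -0.1302 to 0.0115 for SLC1A4, -0.2243 to 0.0456 for SLC7A1, -0.2344 to 0.0194 for STC2 and -0.2757 to 0.1009 for TRIB3. For the log2 ratio of GDF15 to ATF4, the difference between HFPO-TA and DMSO lay between 0.93 and 1.16 under the 7 alternatives run for it, another pseudocount and each of the 6 libraries left out.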
